A study of Homo sapiens with 4 samples.

Results

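The genes described here are 10 genes for products that endometrial epithelium secretes or carries on its surface: LTF, C3, LCN2, SLPI, WFDC2, MUC1, MUC16, SPP1, PAEP and CLU. They were chosen by name from general knowledge of uterine epithelium, with earlier results of these data known. They are 10 of the 26364 gene symbols in the count table. The cells were Ishikawa, a line from a human endometrioid adenocarcinoma of the endometrium, with the Y537S form of estrogen receptor alpha, the product of ESR1. The labels name 2 such clones that were sequenced, and all 4 libraries came from mutant cells. The DMSO group (2 libraries) had 0.1% DMSO, the vehicle, and the E2 group (2 libraries) had 10 nM estradiol (E2), each for 8 h after at least 5 days without hormone. Each mutant clone is 1 clone of 1 line, so what the mutation does and what differs between clones cannot be told apart. Whether the mutant allele was present in 1 copy or more was not given in the sources used here. The columns of the table carry the tags A4 and B212 in place of the clone numbers, so libraries are named by treatment and tag, and each tag had 1 DMSO and 1 E2 library.

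In the uterus, estrogen acts on the epithelium through its receptor, and lactoferrin (LTF) and complement C3 are classical estrogen-induced products of that epithelium in rodents. Cell-surface mucins such as MUC1 and MUC16 form a glycan-rich layer over the apical surface, which limits adhesion and infection. Lipocalin 2, the WAP domain proteins SLPI and WFDC2, osteopontin (SPP1), glycodelin (PAEP) and clusterin (CLU) are secreted, and SPP1 and PAEP are best known as products of the progesterone-dominated secretory phase.

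In the annotation MUC16 and C3 lie on chromosome 19, SLPI and WFDC2 on chromosome 20, LCN2 and PAEP on chromosome 9, and MUC1, LTF, SPP1 and CLU on chromosomes 1, 3, 4 and 8. The libraries held between 71575816 and 85222856 counts, and each pair of them differed by more than sampling noise (chi-square per degree of freedom 25.9 to 207.6). The label was checked against marker genes. All 6 markers of simple epithelium were above the low-count filter, with EPCAM at 37012 to 49113 counts, and so were 8 of 9 endometrial and Müllerian markers, PAX8 among them at 14285 to 26869 counts. FOXA2, a factor of endometrial glands, had 0 counts in all libraries. No neutrophil marker passed the filter, and MPO, S100A8, S100A9, CSF3R and FCGR3B were at 0 in all 4 libraries. ELANE had 0 counts in both A4 libraries, 1 in DMSO B212 and 7 in E2 B212. CAMP had 1 count in E2 B212 and 0 elsewhere. The granule proteins LTF and LCN2 were thus measured with no neutrophil marker above the filter.

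The upstream sequences of the 3 genes that differ most in direction and size between the tags and have an entry in the RefSeq promoter table (GRCh38.p14) are shown, to set beside their levels. Each run is the 250 bases before the annotated start, 5′ to 3′ on the gene's strand, and capitals mark matches to the motifs searched. The LCN2 window lies at chr9:128149203-128149452 on the plus strand, the MUC16 window, taken from the first of its 2 entries, at chr19:9065752-9066001 on the minus strand, and the SPP1 window at chr4:87975464-87975713 on the plus strand.
LCN2: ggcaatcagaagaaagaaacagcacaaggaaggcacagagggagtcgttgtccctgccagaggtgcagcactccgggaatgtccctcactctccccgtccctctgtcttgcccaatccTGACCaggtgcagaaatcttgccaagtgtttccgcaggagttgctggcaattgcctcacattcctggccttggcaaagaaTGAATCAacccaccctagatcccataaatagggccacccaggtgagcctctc
MUC16: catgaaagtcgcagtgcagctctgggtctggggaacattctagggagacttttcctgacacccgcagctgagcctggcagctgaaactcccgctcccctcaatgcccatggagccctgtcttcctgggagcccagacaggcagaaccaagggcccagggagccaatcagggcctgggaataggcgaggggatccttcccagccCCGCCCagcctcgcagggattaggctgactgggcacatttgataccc
SPP1: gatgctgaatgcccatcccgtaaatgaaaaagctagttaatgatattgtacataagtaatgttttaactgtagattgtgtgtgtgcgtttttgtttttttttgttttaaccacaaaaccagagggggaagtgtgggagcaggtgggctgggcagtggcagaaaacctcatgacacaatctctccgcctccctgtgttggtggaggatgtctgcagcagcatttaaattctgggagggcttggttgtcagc

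The motifs were searched on both strands. They were the estrogen response element (GGTCA and TGACC with NNN between them), its arm GGTCA alone (which overlaps it), the AP-1 motif TGANTCA, the NF-kB motif (GGGA, any base, TTTCC), the GC box GGGCGG, the TATA motif TATAAA and the forkhead motif TGTTTAC. In LCN2 the capitals mark the arm on the minus strand at -132 to -128 from the start and an AP-1 match at -52 to -46. In MUC16 they mark a GC box on the minus strand at -47 to -42. SPP1 had 0 matches. PAEP, not shown, also held an AP-1 match, at -95 to -89. None of the 7 genes with an entry (LTF, LCN2, WFDC2, MUC1, MUC16, SPP1 and PAEP) held the full estrogen response element in its window, which 0.0399% of all 35116 such windows did. The arm GGTCA was in 32.6% of windows, AP-1 in 6.57%, NF-kB in 0.527%, the GC box in 42.6%, TATA in 10.7% and forkhead in 2.98%. The SPP1 window was 44.8% G or C with 3 CG pairs, LCN2 54.8% with 4 and MUC16 61.6% with 6, beside medians of 58.0% and 11 over all windows.

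Levels are given as CPM, counts relative to the scaled library total, and, to compare genes, as CPM per kilobase of transcript. SLPI, an inhibitor of neutrophil elastase, was the most abundant of the 10 at 213.7 ± 24.3 CPM per kb (SD, n = 4), and WFDC2, its WAP domain relative known as the tumour marker HE4, followed at 49.5 ± 4.51. LCN2 came next at 14.7 ± 11.0, then CLU at 3.21 ± 2.74, SPP1 at 1.86 ± 1.57, MUC1 at 0.784 ± 0.206, MUC16 at 0.481 ± 0.475, C3 at 0.388 ± 0.203 and LTF at 0.108 ± 0.0147. From LCN2 down to C3 the mean ± SD ranges of each gene and the next in this order overlapped, whereas SLPI, WFDC2 and LTF stood apart from their neighbours. PAEP, the last, was at the floor. The order differed by tag: per kilobase CLU ranked 3 in the A4 libraries and 6 in the B212 libraries, and MUC16 ranked 9 in A4 and 5 in B212. The lower ranks also rest on the transcript chosen, since with the median transcript length of each gene CLU stood at 12.9 CPM per kb, C3 at 3.49 and MUC1 at 3.44.

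**Figure D1:**
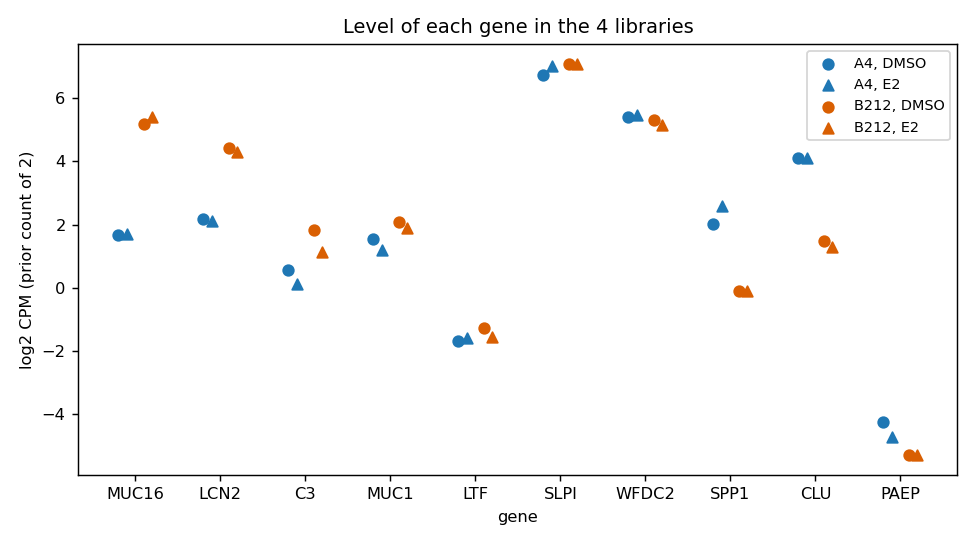
Level of each gene, as log2 CPM with a prior count of 2, in the 4 libraries: blue for A4, orange for B212, circles for DMSO and triangles for E2. Colours separate for MUC16, LCN2, SPP1 and CLU far more than circles and triangles do, and SLPI and WFDC2 are high in every library.

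B212 differed from A4 in most of these genes. Of the 9 tested, 7 passed edgeR's quasi-likelihood test with Benjamini-Hochberg adjustment at 0.05: MUC16, LCN2, C3, MUC1 and SLPI were higher in B212, and SPP1 and CLU were lower. Over all 15599 genes tested 51.0% were called, 25.2% as higher and 25.8% as lower. With the further limit of a log2 fold change of 1 or more in either direction, 5 of the 9 were called, against 11.0% of all genes. The median log2 fold change of the 9 was 0.24, and that of all genes tested was 0.00419. Each of the 9 had at least 21 counts in every library and reached the filter in both tags. A4 and B212 libraries did not overlap for any of the 9, which was so for 67.5% of all genes tested. In bulk RNA, fewer cells of a type and less RNA per cell cannot be told apart. Nothing says that the libraries of a tag came from separate cultures beyond their treatment, so p-values measure the spread between these libraries alone.

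MUC16, the membrane mucin that carries the CA125 antigen, differed most. It had 3.14 CPM in DMSO A4 and 3.21 CPM in E2 A4, against 36.0 CPM in DMSO B212 and 42.0 CPM in E2 B212. Both B212 libraries were far above both A4 libraries, and the E2 library was near the DMSO library of its tag. The log2 fold change was 3.62 ± 0.10 (SE), or 12.3-fold, with an adjusted p of 1.977e-16 by edgeR's quasi-likelihood test. Of the 15599 genes, 142 (0.910%) had a larger absolute change. MUC1, the other epithelial surface mucin, moved the same way by less. It stood at 2.91 CPM in DMSO A4, 2.27 CPM in E2 A4, 4.22 CPM in DMSO B212 and 3.68 CPM in E2 B212. The B212 libraries were higher without overlap, with a log2 fold change of 0.62 ± 0.15 (adjusted p = 0.00148, edgeR's quasi-likelihood test). With no treatment term the adjusted p for MUC1 was 0.0435, and in that fit the call was lost without the E2 A4 library (0.44, adjusted p = 0.132) and without the DMSO B212 library (0.50, adjusted p = 0.131).

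LCN2 encodes lipocalin 2, which binds bacterial siderophores and so withholds iron. It had 329 counts in DMSO A4 and 357 in E2 A4, against 1844 in DMSO B212 and 1432 in E2 B212, or 4.49, 4.35, 21.6 and 19.5 CPM. The tags were far apart and the treatments close. The log2 fold change was 2.22 ± 0.10, or 4.65-fold (adjusted p = 5e-13, edgeR's quasi-likelihood test). C3, the central component of complement, had 107 counts in DMSO A4, 87 in E2 A4, 298 in DMSO B212 and 158 in E2 B212. Every B212 library was above every A4 library, and the E2 library of each tag was the lower of its pair. The log2 fold change for B212 was 1.15 ± 0.18, or 2.22-fold (adjusted p = 2.045e-05, edgeR's quasi-likelihood test). LTF, the iron-binding lactoferrin, was scarce, with 21 counts in DMSO A4, 25 in E2 A4, 33 in DMSO B212 and 23 in E2 B212. Its libraries were all within a narrow band, and a difference was not detectable at this depth (log2 fold change 0.24 ± 0.37, adjusted p = 0.612, edgeR's quasi-likelihood test).

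The WAP domain inhibitors stayed near one level. SLPI was at 106 CPM in DMSO A4, 131 CPM in E2 A4, 136 CPM in DMSO B212 and 137 CPM in E2 B212. DMSO A4 was the low library and the other 3 were close together. The tag difference was 0.21 ± 0.076 (log2, adjusted p = 0.0243 by edgeR's quasi-likelihood test). It was not called by DESeq2 (0.20, adjusted p = 0.109), with no treatment term (adjusted p = 0.226), or with no treatment term and without DMSO A4 (0.055, adjusted p = 0.726), DMSO B212 (0.20, adjusted p = 0.543) or E2 B212 (0.20, adjusted p = 0.530). WFDC2 was at 41.9 CPM in DMSO A4, 44.5 CPM in E2 A4, 40.0 CPM in DMSO B212 and 35.7 CPM in E2 B212. Both B212 libraries lay just below both A4 libraries, with a log2 fold change of -0.19 ± 0.082 that missed the threshold (adjusted p = 0.0594, edgeR's quasi-likelihood test) and passed it with no low-count filter (adjusted p = 0.0333).

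SPP1 and CLU were the genes that fell in B212. SPP1 encodes osteopontin, a secreted phosphoprotein that binds integrins and CD44. It had 292 counts in DMSO A4 and 490 in E2 A4, against 78 in DMSO B212 and 66 in E2 B212. The A4 libraries were the high ones, and they also differed from each other. The log2 fold change was -2.43 ± 0.18, or 5.38-fold lower in B212 (adjusted p = 7.198e-10, edgeR's quasi-likelihood test). CLU encodes clusterin, an extracellular chaperone that also inhibits terminal complement assembly. Its level was 17.1 CPM in DMSO A4, 17.3 CPM in E2 A4, 2.75 CPM in DMSO B212 and 2.40 CPM in E2 B212. The libraries of a tag nearly coincided, and the tags were well separated. The log2 fold change was -2.74 ± 0.12, or 6.67-fold lower (adjusted p = 1.111e-13, edgeR's quasi-likelihood test). Larger absolute changes than that of CLU were found for 257 genes and than that of SPP1 for 334. PAEP, glycodelin, had 2 counts in DMSO A4, 1 in E2 A4 and 0 in both B212 libraries, under the floor of 3 counts in each (0.0352 to 0.0410 CPM), and was not tested.

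**Figure D2:**
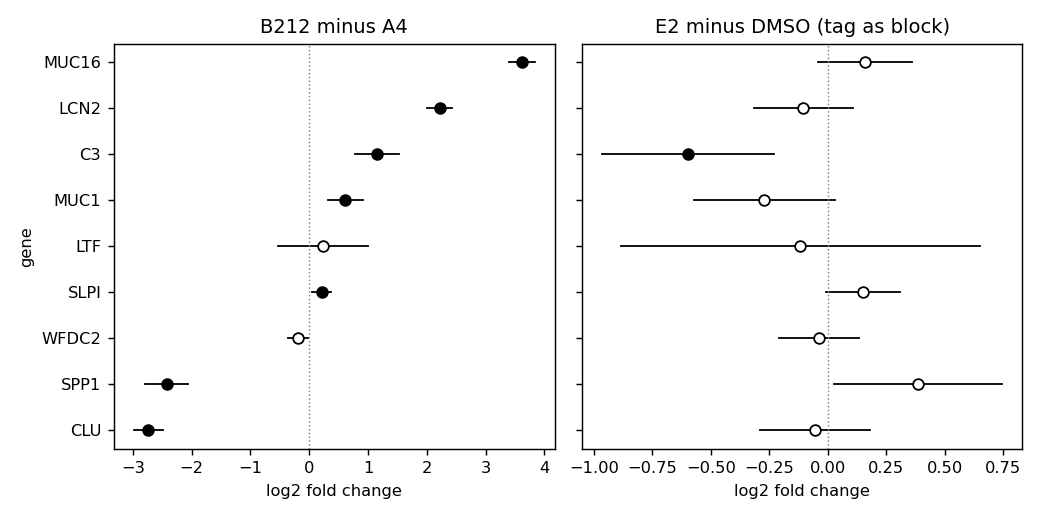
Log2 fold changes (circles) with 95% intervals from edgeR, for B212 minus A4 on the left and E2 minus DMSO with the tag as a block on the right, for the 9 tested genes; filled circles had an adjusted p below 0.05. The horizontal scales differ: the left panel runs from -2.74 for CLU to 3.62 for MUC16, and the right panel from -0.60 for C3 to 0.39 for SPP1.

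Markers of other cell types differed between the tags as well. The 6 ciliated cell markers summed to 11.1 and 7.69 CPM in the A4 libraries and to 42.2 and 41.8 CPM in B212, mostly from FOXJ1 and CAPS. Of the 5 tested, 3 were called as higher in B212 (FOXJ1, CAPS and RSPH1). PIFO (0.31) and TPPP3 (-0.10) were not called. Over all genes 25.2% were called as higher and 25.8% as lower. CAPS, a calcium-binding protein of ciliated cells, had 107 and 130 counts in A4 and 1714 and 1794 in B212, while DNAH9, an axonemal motor, had 1 count in each library. Stromal markers summed to 133.3 and 97.3 CPM in A4 and to 47.2 and 39.1 CPM in B212, mostly from COL1A1, with DCN at 1 count in DMSO A4 and 0 in the others. Of the 4 stromal markers tested 3 were lower in B212, and THY1 was higher, at 87 and 113 counts in A4 and 290 and 234 in B212 (1.36 ± 0.17, adjusted p = 1.782e-06, edgeR's quasi-likelihood test). Endothelial markers summed to 2.30 to 5.11 CPM with PECAM1 at 0, and other leukocyte markers to 1.75 to 2.52 CPM. Their part in the differences of MUC16, LCN2, SPP1 and CLU was not tested.

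The E2 comparison asks how 8 h of ligand changed these genes when the receptor is mutant. In the fit with no block, no gene was called: 0 of the 9 and 0% of all 15599 by edgeR's quasi-likelihood test, with 150 genes of the whole table and 0 of the 9 at an unadjusted p under 0.05, and DESeq2 called 1 gene. In that fit the spread between tags counts as error. The log2 fold changes ran from -0.62 ± 0.61 for C3 to 0.49 ± 1.14 for SPP1, each with an adjusted p of 0.9999. DMSO and E2 libraries overlapped for all 9 genes, and did not overlap for 25.0% of all genes tested. With the tag as a block, 1 of the 9 was called, C3, which was lower with E2. In that fit 9.56% of all genes were called, 6.13% as higher and 3.44% as lower, so 1 of 9 is near the background. The median log2 fold change of the 9 in the blocked fit was -0.056.

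C3 fell with E2 in both tags. It went from 1.46 to 1.06 CPM in A4 and from 3.49 to 2.16 CPM in B212. The E2 over DMSO ratio was 0.726 in A4 (95% Clopper-Pearson interval 0.541 to 0.972) and 0.617 in B212 (0.506 to 0.751), and these intervals cover counting error only. The blocked log2 fold change was -0.60 ± 0.18 (adjusted p = 0.0378, edgeR's quasi-likelihood test). The call was lost with DESeq2 size factors (adjusted p = 0.0631) and once a smooth dependence on length and GC content of transcripts was taken out (-0.48, adjusted p = 0.144), and DESeq2 gave no adjusted p. LTF, the other classical estrogen-induced gene, had a ratio of 1.06 in A4 (0.571 to 2.00) and 0.812 in B212 (0.455 to 1.42). Both intervals include 1, and its blocked log2 fold change was -0.12 ± 0.37 (adjusted p = 0.878, edgeR's quasi-likelihood test).

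Of the surface mucins, MUC16 was higher in the E2 library of each tag and MUC1 lower. The ratio for MUC16 was 1.02 in A4 (0.852 to 1.22) and 1.17 in B212 (1.11 to 1.23), so the interval lay above 1 only in B212. For MUC1 it was 0.780 in A4 (0.637 to 0.954) and 0.873 in B212 (0.743 to 1.03), so the interval lay below 1 only in A4. Neither passed the blocked test, with adjusted p of 0.324 for MUC16 (log2 fold change 0.16 ± 0.096) and 0.252 for MUC1 (-0.27 ± 0.15) by edgeR's quasi-likelihood test. LCN2 was lower with E2 by a small margin, at ratios of 0.969 (0.832 to 1.13) in A4 and 0.904 (0.843 to 0.969) in B212, with a blocked adjusted p of 0.557.

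The well-counted WAP domain genes showed E2 ratios that differed between the tags beyond counting error. SLPI had a ratio of 1.23 in A4 (1.20 to 1.27) and 1.00 in B212 (0.977 to 1.03). WFDC2 had a ratio of 1.06 in A4 (1.01 to 1.11) and 0.892 in B212 (0.847 to 0.939). These were the 2 genes of the 9 whose intervals did not overlap between tags. With 1 library for each tag and treatment the difference has no replicate check. The share of all genes with such intervals was not computed, so the 2 are not read as particular. Over the genes compared, the DMSO and E2 libraries differed beyond sampling noise (chi-square per degree of freedom 65.4 in A4 and 25.9 in B212). Neither was called in the blocked fit (adjusted p = 0.220 for SLPI and 0.812 for WFDC2, edgeR's quasi-likelihood test). SPP1 had a ratio of 1.5 in A4 (1.29 to 1.74) and 0.985 in B212 (0.699 to 1.39). Its A4 pair was apart and its B212 pair was not, and the blocked log2 fold change of 0.39 ± 0.17 did not pass (adjusted p = 0.165, edgeR's quasi-likelihood test). With length and GC taken out, the blocked log2 fold changes were 0.17 for SPP1, -0.21 for WFDC2 and -0.040 for SLPI, none of them called. CLU was close to 1 in A4, at 1.02 (0.942 to 1.10), and at 0.872 (0.713 to 1.07) in B212. Across the 9 genes, 2 were higher with E2 in both tags, 3 were lower in both and 4 went in opposite directions, whereas 29.8% of all genes tested did the last.

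**Figure D3:**
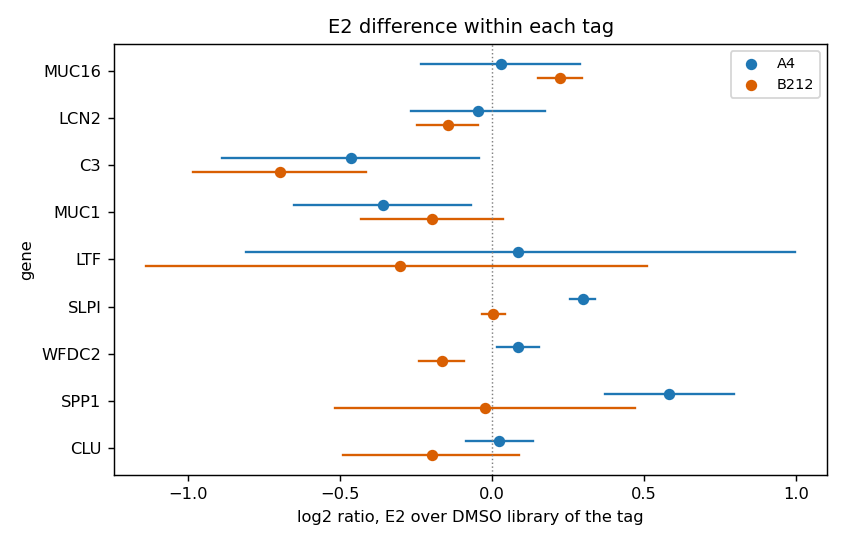
Log2 ratio of the E2 to the DMSO library within A4 (blue) and within B212 (orange) for the 9 tested genes, with 95% Clopper-Pearson intervals that cover counting error only. C3 lies below 0 in both tags, the A4 interval of SPP1 lies above 0, and the intervals of SLPI and WFDC2 do not overlap between tags.

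The other mucins were examined from a list of 17 genes, of which 9 passed the filter. MUC2, MUC4, MUC15 and MUC19 reached it through the B212 libraries only, and MUC3A through A4 only. The filter thus bears on their direction, and no count or median over the 9 is read for the tags. The 4 that reached it in both tags, MUC5AC, MUC5B, MUC6 and MUC20, were called as higher in B212, beside 25.2% of all genes tested. Their log2 fold changes were 0.47, 1.57, 1.75 and 2.06. MUC20, a membrane mucin, had 106 and 101 counts in the A4 libraries and 503 and 387 in B212 (log2 fold change 2.06 ± 0.15, adjusted p = 7.066e-10, edgeR's quasi-likelihood test). The blocked E2 fit called 2 of the 9, both higher (6.13% over all genes) and both gel-forming. MUC5B had 363 and 543 counts in DMSO and E2 of A4, and 927 and 1870 of B212, with a log2 fold change of 0.88 ± 0.14 (adjusted p = 9.794e-04, edgeR's quasi-likelihood test). MUC5AC, named after its values were seen, had 171 and 270 counts in DMSO and E2 of A4, and 255 and 358 of B212 (0.61 ± 0.14, adjusted p = 0.0131, edgeR's quasi-likelihood test). In both tags the E2 library was the higher for MUC5B and MUC5AC, while MUC1 and MUC16 were not called.

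**Figure D4:**
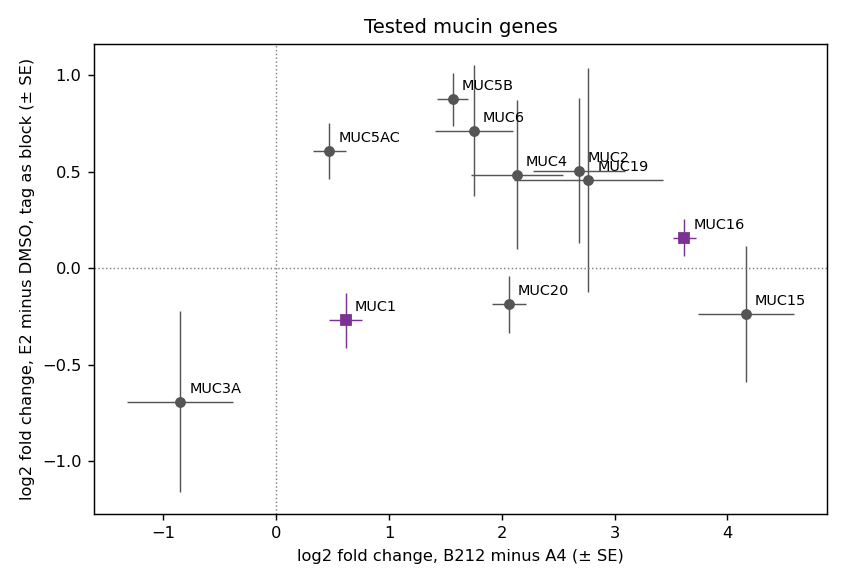
Log2 fold change ± SE of the tested mucin genes, B212 minus A4 on the horizontal axis and E2 minus DMSO with the tag as a block on the vertical axis; squares are MUC1 and MUC16, circles the 9 other mucins. All but MUC3A lie to the right of 0, of which MUC2, MUC4, MUC15 and MUC19 passed the low-count filter through B212 only, and MUC5B and MUC5AC, at 0.88 and 0.61 on the vertical axis, are the ones called for E2.

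Enzymes that build the mucin glycans moved in both directions. Of 22 tested, 9 were higher in B212, 5 were lower and 8 did not pass, against 25.2% higher and 25.8% lower over all genes, with a median of 0.11. GALNT18, among those lower, reached the filter through A4 only, so the filter bears on its direction. B3GNT3, which extends core O-glycans, had 231 and 206 counts in A4 and 2670 and 1621 in B212 (log2 fold change 3.23 ± 0.11, adjusted p = 2.723e-15, edgeR's quasi-likelihood test). GALNT6, which starts O-glycans, fell in B212 from 6254 and 5719 counts to 2687 and 2057 (-1.38 ± 0.077). With E2 the blocked fit called 1 of the 22 as higher and 3 as lower, against 6.13% and 3.44% over all genes. The higher gene was C1GALT1C1, the chaperone of the core 1 enzyme (0.32 ± 0.079), and B3GNT3 was among the lower (-0.44 ± 0.10). The C1GALT1C1 call was lost once the dependence on length and GC was taken out (0.12, adjusted p = 0.25), and with DESeq2 it missed the threshold (adjusted p = 0.0534), as did B3GNT3 (adjusted p = 0.0514). Of 13 tested shedding and binding partners of mucins, 3 were higher and 5 lower in B212, beside the same 25.2% and 25.8% over all genes. They included RDX, which links membrane proteins to actin, at 0.56, and LGALS3, a galectin that binds mucin glycans, at -0.68. With E2 the blocked fit called 1 of the 13 as higher and 3 as lower, against 6.13% and 3.44% over all genes. EZR, the ezrin linker of membrane and actin, was lower (-0.32 ± 0.071, adjusted p = 0.00875, edgeR's quasi-likelihood test), and RDX was higher (0.24 ± 0.074, adjusted p = 0.0439, edgeR's quasi-likelihood test). The RDX call was lost with DESeq2 (adjusted p = 0.0989), with its size factors (adjusted p = 0.0859) and with length and GC taken out (adjusted p = 0.116).

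Among receptors of the secreted genes, LRP2, the endocytic receptor megalin, which takes up lipocalin 2 among other ligands, had 61 and 78 counts in A4 and 1072 and 752 in B212 (3.66 ± 0.15, adjusted p = 7.1e-14, edgeR's quasi-likelihood test). SLC22A17, a receptor of lipocalin 2, had 123 and 119 counts in A4 and 33 and 18 in B212 (-2.30 ± 0.27, adjusted p = 5.034e-07, edgeR's quasi-likelihood test). LCN2 and LRP2 were thus high in the same libraries, and SLC22A17 in the others. Of 10 lipocalins and receptors tested, LCN8, LCN15 and ORM2 reached the filter through B212 only, so no count or median over the 10 is read for the tags. None of the 10 was called for E2 in the blocked fit, beside 9.56% of all genes, with 0 at an unadjusted p under 0.05. For osteopontin and its receptors, 1 of 9 tested was higher and 4 were lower in B212, so that 5 of 9 were called where 51.0% of all genes were. CD44, a receptor of osteopontin, had 37129 and 39906 counts in A4 and 20621 and 15505 in B212 (-1.14 ± 0.073). ITGB3, the integrin beta 3 subunit that pairs with ITGAV as an osteopontin receptor, fell with E2: its DMSO and E2 libraries held 3958 and 2904 counts in A4, and 2354 and 1207 in B212 (blocked log2 fold change -0.67 ± 0.081, adjusted p = 7.45e-05, edgeR's quasi-likelihood test).

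Of 13 tested complement genes and regulators, 4 were higher in B212, near the 25.2% of all genes, 0 were lower and 9 did not pass, with a median of 0.15. C5 had 243 and 236 counts in A4 and 664 and 515 in B212 (1.26 ± 0.13, adjusted p = 7.509e-08, edgeR's quasi-likelihood test). None of the 13 was called for E2 in the blocked fit, beside 9.56% of all genes, with 2 at an unadjusted p under 0.05, whereas C3 was. C2, CFB, C4A and C4B were listed at 0 in all libraries, as were DDX39B, FLOT1 and HSPA1A, widely expressed genes of the same region. Between HLA-F and RPS18 in RefSeq gene order, 98 of 125 genes (78.4%) had at most 1 count in every library, against 16.8% of all protein-coding genes, so nothing is read from these values. None of the 10 genes lies there.

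Of 6 tested WAP domain proteins and inhibitors, 1 was higher and 2 lower in B212, beside 25.2% and 25.8% over all genes. SERPINA1, among those lower, reached the filter through A4 only, so the filter bears on its direction. PI3, the elafin relative of SLPI, had 265 and 318 counts in A4 and 490 and 341 in B212 (0.47 ± 0.14, adjusted p = 0.00776, edgeR's quasi-likelihood test), and SPINT1, a membrane protease inhibitor, was lower (-0.51 ± 0.069). PI3 missed the threshold with DESeq2 (adjusted p = 0.0984) and with no treatment term (adjusted p = 0.0639). SPINT1 was also called for E2 in the blocked fit (-0.28 ± 0.068, adjusted p = 0.0146, edgeR's quasi-likelihood test), a call lost with length and GC taken out (adjusted p = 0.0770). Of 4 tested transferrin family genes and lactoferrin partners, LRP1 was higher (0.45) and TFRC lower (-0.23) in B212, and none was called for E2. The TFRC call was lost when scaled by library size alone (adjusted p = 0.0843). Of 15 other secreted uterine products tested, 6 were higher and 5 lower in B212, beside 25.2% and 25.8% over all genes. AGR3, CP and DPP4 reached the filter through B212 only and STC1 through A4 only. No count over the 15 is therefore read for the tags. CP, the ferroxidase ceruloplasmin, had 11 and 7 counts in A4 and 873 and 680 in B212 (6.37 ± 0.21). STC1, a secreted glycoprotein hormone, had 177 and 150 counts in A4 and 6 and 1 in B212 (-5.57 ± 0.37). For both, the filter bears on the direction. Leaving out 1 library, with no treatment term, gave values from -7.13 to -4.88 for STC1, which was near the floor in B212. The blocked fit called 1 of the 15 for E2, as higher, beside 6.13% higher over all genes. It was the secretoglobin SCGB2A1, with 248 and 444 counts in DMSO and E2 of A4, and 789 and 903 of B212. Its blocked log2 fold change was 0.53 ± 0.12 (adjusted p = 0.00865, edgeR's quasi-likelihood test). That call was lost once the dependence on length and GC was taken out (0.25, adjusted p = 0.181). NF-kB and acute phase genes often move with LCN2 in inflamed epithelium. Of 6 tested, NFKBIZ was higher in B212 (0.41 ± 0.16) and 5 did not pass, beside 25.2% higher over all genes. Its call was lost with DESeq2 (adjusted p = 0.228).

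For the 5 genes whose log2 CPM spanned at least 1, the genes with the nearest profile over the 4 libraries were sought, by the Euclidean distance between mean-centred log2 CPM. For MUC16 they were OVCH1 (0.158) and BHLHE41 (0.162), and 4 genes lay within 0.25. For LCN2 they were RASEF (0.0525) and XG (0.0532), with 36 genes within 0.25. For C3 they were TMEM221 (0.125) and MEOX1 (0.138), and for CLU SH3PXD2A (0.116) and KIT (0.118), with 15 genes within 0.25 in each case. For SPP1 they were TRIM21 (0.0834) and LINC00839 (0.212), the 2 genes within 0.25. The 4 libraries hold 2 tags, so a near profile is mostly a like difference between the tags. OVCH1 had 0 counts in both A4 libraries and 20 in both B212 libraries. Its A4 values, and so its distance to MUC16, rest on the prior count of 2.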

How the data were processed

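Libraries were stranded and came from 500 ng of poly(A)-selected RNA each, per the labels' protocols. The authors deposited raw read counts per gene symbol. The submitters' processing notes name hg19, HISAT2, SAMtools, featureCounts and DESeq2, with no version. The strand setting was not given in the sources used here. MIR6843 (0 counts) overlaps an exon of CLU on the same strand. The table's other 4 columns of values belong to no sample listed and were left out.

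Genes were kept by filterByExpr of edgeR 4.0.16 (minimum count 10), scaled by TMM and tested by edgeR's quasi-likelihood test with Benjamini-Hochberg adjustment at 0.05 over 15599 genes. E2 was tested with no block, and B212 against A4 with treatment as a covariate. The planned comparison of clones was run between tags. Same-tag libraries deviated from their group means together (r = 0.871 across genes, which are not independent replicates), and the column tags, not the labels, give that pairing. With 2 groups of 2 this is a single value. A fit that takes the tag as a replicate block is printed where it changes a call. Log2 CPM had a prior count of 2. Lengths and GC content came from 1 GENCODE 29 transcript a gene, found for 96.6% of tested genes.

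Members and lists were chosen with earlier results of these data known. Named genes were all 10 members, from each list the gene of smallest p-value among those called, per direction, and the 2 nearest profiles. On simulated counts, 200 genes drawn from those of higher mean count were changed by 1 on the log2 scale. The E2 fit recovered 0 with no block (0 false) and 195 with the block (9 false) over 15458 genes. The tag fit recovered 197 (7 false) over 15429 genes. Smaller changes, and changes in scarce genes such as LTF, were not simulated. Alternatives used DESeq2 1.42.0, limma-voom 3.58.1, other scalings and filters, a length and GC trend (mgcv 1.9.3), and left out each library. R 4.3.3 and Python 3.11.15 with matplotlib 3.10.9 were used.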

Additional observations from a re-analysis of the deposited data

Results flagged for a closer look

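For 4 of the 9 tested genes the E2 library was higher than the DMSO library in A4 and lower in B212. Over all genes tested, 29.8% went in opposite directions in the tags, in either order. On the log2 scale the E2 response in B212 minus that in A4 was -0.39 for LTF, -0.25 for WFDC2, -0.60 for SPP1 and -0.22 for CLU. Each tag had 1 library per treatment, so these differences were not tested. The counting intervals of the E2 ratio did not overlap between tags for WFDC2 and did for LTF, SPP1 and CLU. The interval included 1 in both tags for LTF and CLU, and in B212 for SPP1.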

How the results depend on the processing

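With 1 library for each tag and treatment, every result rests on few libraries. For E2, the count of genes called was 0 with no block and without each library in turn, 1 by DESeq2, 1492 with the replicate block, 533 with the block in DESeq2, 717 with the block and DESeq2 size factors, and 581 with the block and a length and GC trend. Of the tag comparison, 7950 genes were called, 4456 with no treatment term, and 5754, 4831, 3253 and 3203 without DMSO A4, E2 A4, DMSO B212 and E2 B212, also with no treatment term. Scaling by library size alone moved the split from 3927 higher and 4023 lower to 4761 and 3176. The E2 log2 fold change changed sign for SLPI (-0.040, block with trend), MUC16 (-0.014, limma-voom) and CLU (0.012 with no filter, 0.013 by limma-voom). With 1 library left out, 1 group holds 1 tag and the other both. With no block the E2 value then also carries the difference between the tags. Leaving out 1 library gave E2 ranges with no block of -0.32 to 0.094 for LTF, -1.22 to 0.12 for C3, -1.58 to 1.39 for LCN2 (0.58 without E2 A4), -0.024 to 0.32 for SLPI, -0.20 to 0.12 for WFDC2 (0.0063 without DMSO A4), -0.65 to 0.046 for MUC1 (0.017 without DMSO B212), -2.61 to 2.83 for MUC16 (-0.67 without DMSO A4), -1.44 to 1.92 for SPP1 (-0.23 without DMSO B212), -2.05 to 1.85 for CLU (0.81 without E2 B212), -0.26 to 1.69 for MUC5B, -2.78 to 1.95 for B3GNT3 (0.36 without E2 A4), -0.56 to 0.00013 for SPINT1, -0.065 to 0.58 for RDX (-0.022 without E2 B212), 0.31 to 0.87 for MUC5AC, -1.31 to -0.083 for ITGB3 and -0.22 to 1.37 for SCGB2A1 (-0.058 without DMSO A4). In the tag comparison the ranges were 3.50 to 3.72 for MUC16, 2.13 to 2.29 for LCN2, 0.77 to 1.47 for C3, -2.73 to -2.14 for SPP1 and -2.85 to -2.64 for CLU, and these 5 kept their call in every setting run. Of the other named list genes, ITGB6, NFKBIZ, PI3 and TFRC lost their tag call with no treatment term alone, and LRP1, RDX and SPINT1 with no treatment term and 1 library left out. Other causes of these changes were not tested.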
